A study of Homo sapiens with 6 samples.

Results

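The KLF (Krüppel-like factor) genes were examined by name in RNA sequencing of 3 human bladder cancer cell lines, with the members KLF3, KLF4, KLF5, KLF6, KLF7, KLF9, KLF10, KLF11, KLF13 and KLF16 taken as a list. Of these 10 genes, 8 were found under their symbol in a table of 9597 genes, and KLF9 and KLF11 were not analysed here. The lines were RT4 and RT112, which carry an FGFR3-TACC3 fusion, and SW780, with a fusion that the study writes as FGFR3-BAIBP2L1. Each line was treated for 2 days with DMSO, the solvent, or with quisinostat, an inhibitor of histone deacetylases, at 50 nM in RT4, 10 nM in RT112 and 25 nM in SW780. RT4 was grown in McCoy's 5A medium, and RT112 and SW780 in DMEM. Each line and treatment had 1 library, so a difference within a line had no replicate check, and the dose and the cell line cannot be told apart.

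KLF proteins are transcription factors that bind GC-rich and CACCC-containing DNA through zinc fingers at the C-terminal end. In epithelia, KLF5 is known for activity in proliferating cells and KLF4 for activity in differentiating cells. KLF10, KLF11, KLF13 and KLF16 can recruit SIN3A and histone deacetylases to their targets, and KLF3 recruits CTBP proteins, so that several members work as repressors. Whether quisinostat shifted the transcript levels of the family, and whether it did so alike in the 3 lines, was the question of the comparison.

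Levels are given in FPKM (fragments scaled by transcript length and by library size). This scaling alone does not make libraries fully comparable, and their summed FPKM ran from 237363 to 263856. The 6 libraries had a median of 6.59 to 7.40 FPKM over 10066 loci, and the number of reads behind the values is unknown. All 12 urothelial and epithelial markers were found, with summed levels of 869 to 1708 FPKM, and UPK3A was listed at 0 in both RT112 libraries. Of 10 stromal, endothelial and immune markers only COL1A1 and COL3A1 were found, at a summed level of 1.16, 0.26 and 2.79 FPKM with DMSO and 6.66, 1.78 and 1.82 FPKM with quisinostat in RT4, RT112 and SW780. Each library was bulk RNA of 1 cultured cell line, so fewer cells with a transcript and less of it per cell cannot be told apart. The log2 ratios of all loci followed the GC content of their transcripts in each line (Spearman correlation across 8258 loci, -0.498 for RT4, 0.435 for RT112, -0.227 for SW780), and for KLF and SP genes, ratios with this trend removed are given beside those that differ from the deposited ones by more than 0.3.

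With DMSO, KLF5 had the highest level of the family in every line and made up 43.5% (RT4), 46.5% (RT112) and 63.6% (SW780) of the summed FPKM of the 8 genes. KLF3 came next in every line. KLF4 was the lowest of the 8 in RT4 and RT112, and KLF13 was the lowest in SW780. With quisinostat, KLF4, KLF10 and KLF13 were higher and KLF5 was lower in all 3 lines by more than 0.3 on the log2 scale, the threshold used in the study. These were 3 of 8 members higher, against 11.4% of the 9112 loci with a value above 0 in every library, and 1 of 8 lower, against 4.99%. KLF6 and KLF7 were also above 0 in every line, which made 5 of 8 members where 22.9% of loci were. KLF3 was below 0 in every line, as was KLF5, which made 2 of 8 where 16.6% of loci were, and KLF16 differed in sign between lines.

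**Figure D1:**
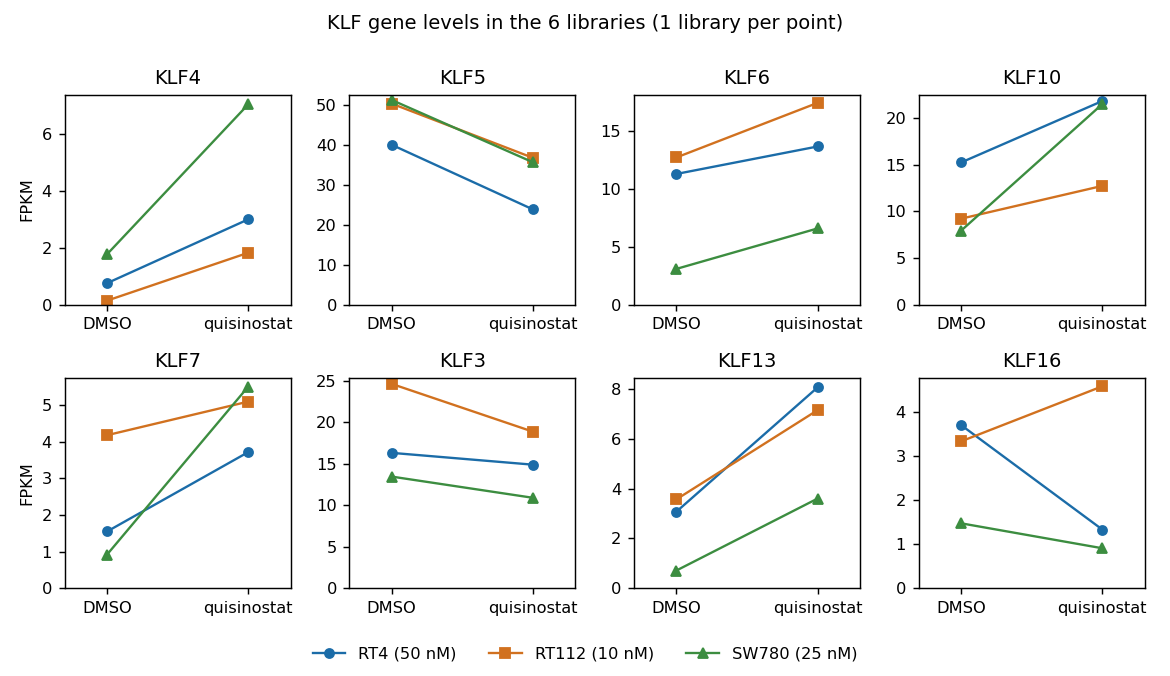
FPKM (vertical axis, linear, from 0) of each of the 8 KLF genes with DMSO and with quisinostat, 1 point per library and 1 line per cell line. KLF4 and KLF13 slope up and KLF5 slopes down in all 3 lines, while the KLF16 lines cross.

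The sequences upstream of 1 RefSeq start each of KLF4 and KLF13, the members with ratios above 1 in every line, and of KLF16, the member that differed between lines, are shown because KLF and SP proteins are known to bind GC boxes and CACCC boxes. Each is the 250 bases before the RefSeq start (GRCh38.p14), 5′ to 3′ on the strand of the gene, with every GGGCGG or CACCC on either strand in capitals, where matches that overlap form 1 run. The windows are chr9:107489770-107490019 (minus strand), chr15:31326585-31326834 (plus strand) and chr19:1863580-1863829 (minus strand). The KLF4 window lies inside the GENCODE 29 gene, which begins farther upstream.
KLF4: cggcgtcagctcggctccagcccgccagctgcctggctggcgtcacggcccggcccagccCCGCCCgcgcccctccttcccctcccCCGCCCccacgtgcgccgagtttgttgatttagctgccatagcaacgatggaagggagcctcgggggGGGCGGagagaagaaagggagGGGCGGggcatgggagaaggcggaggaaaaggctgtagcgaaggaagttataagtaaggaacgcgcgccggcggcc
KLF13: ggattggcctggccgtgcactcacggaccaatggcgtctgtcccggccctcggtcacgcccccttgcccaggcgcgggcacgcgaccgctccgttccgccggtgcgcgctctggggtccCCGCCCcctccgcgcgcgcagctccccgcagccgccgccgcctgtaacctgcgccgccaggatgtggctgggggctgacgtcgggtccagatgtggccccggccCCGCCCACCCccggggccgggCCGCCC
KLF16: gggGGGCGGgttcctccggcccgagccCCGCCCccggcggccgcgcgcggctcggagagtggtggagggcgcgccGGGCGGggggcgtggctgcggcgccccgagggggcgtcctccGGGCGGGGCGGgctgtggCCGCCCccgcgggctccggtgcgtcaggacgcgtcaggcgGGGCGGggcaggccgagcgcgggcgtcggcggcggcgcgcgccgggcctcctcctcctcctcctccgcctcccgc

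The GC box was present in 4, 3 and 7 copies in these 3 windows. RefSeq promoter windows were matched for 6 of the 8 members, and 5 of them held a GC box, which 42.6% of all 35116 windows did. The window of KLF5 held 2 copies, that of KLF6 held 2, and that of KLF7 none. CACCC was found in the windows of KLF5, KLF7 and KLF13, as in 54.7% of all windows. GC content of the 6 windows was 58.0% to 86.4%, against a median of 58.0%. The GC box was thus in the windows of members that were higher, of KLF5, which was lower, and of KLF16. A match is a description of the letters and not of binding.

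KLF4, a factor of epithelial barrier formation and of cell reprogramming, lies on chromosome 9 (GRCh38, GENCODE 29 gene at chr9:107484852-107490482, minus strand). Its level was 0.755 FPKM with DMSO and 2.99 FPKM with quisinostat in RT4. In RT112 the level was 0.143 and 1.82 FPKM, and in SW780 it was 1.77 and 7.03 FPKM. SW780 was highest and RT112 lowest under both treatments, and the lowest treated level lay just above the highest DMSO level. The treated level was 3.96 times the DMSO level for RT4, 12.8 times for RT112 and 3.97 times for SW780, for a mean log2 ratio of 2.55 ± 0.97 (SD, n = 3 lines). Only 6.42%, 1.16% and 3.46% of loci had a higher ratio in RT4, RT112 and SW780. The RT112 fold rests on a DMSO level of 0.143 FPKM.

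KLF13, known from T lymphocytes as a regulator of chemokine genes, has 2 exons on chromosome 15 (chr15:31326855-31435665, plus strand). Its level was 3.08 FPKM with DMSO and 8.06 FPKM with quisinostat in RT4, 3.57 and 7.15 FPKM in RT112, and 0.716 and 3.60 FPKM in SW780. The treated SW780 library thus reached the level of the untreated RT112 library. The fold was 2.62, 2.00 and 5.03 in RT4, RT112 and SW780. With the GC trend removed, the log2 ratios were 1.91, 0.62 and 2.46 in place of 1.39, 1.00 and 2.33.

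KLF10, first described as a gene induced by TGF-beta, lies on chromosome 8. Its level was 15.3 FPKM with DMSO and 21.8 FPKM with quisinostat in RT4, 9.22 and 12.7 FPKM in RT112, and 7.94 and 21.5 FPKM in SW780. The treatments overlapped across lines, since the treated RT112 library was below the DMSO library of RT4. The log2 ratios were 0.52, 0.47 and 1.44 in RT4, RT112 and SW780, and 31.2%, 28.2% and 6.26% of loci lay above them. With the GC trend removed the RT4 ratio was 0.303, only just above the threshold of 0.3.

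KLF5, a factor of proliferating basal epithelial cells, lies on chromosome 13 (chr13:73054976-73077542, plus strand) and was the one member lower by more than 0.3 in all 3 lines. Its level was 40.01 FPKM with DMSO and 23.8 FPKM with quisinostat in RT4, 50.3 and 36.8 FPKM in RT112, and 51.2 and 35.6 FPKM in SW780. All 3 treated libraries were below all 3 DMSO libraries. The treated level was 0.596, 0.730 and 0.696 times the DMSO level, for a mean log2 ratio of -0.57 ± 0.15 (SD, n = 3 lines). In RT4, RT112 and SW780, 19.4%, 16.1% and 17.9% of loci had a lower ratio. After treatment KLF5 was still the highest member in every line, at 26.4%, 35.2% and 38.9% of the summed level.

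KLF6, an early-response gene with reported tumour suppressor activity, lies on chromosome 10 (chr10:3775996-3785281, minus strand). Its level was 11.3 and 13.7 FPKM with DMSO and quisinostat in RT4, 12.7 and 17.5 FPKM in RT112, and 3.10 and 6.60 FPKM in SW780. The log2 ratio of 0.28 in RT4 fell short of the threshold and was 0.02 with the GC trend removed, against 0.45 in RT112 and 1.09 in SW780. SW780 was below the other lines under both treatments.

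KLF7, known for its part in neuronal development, lies on chromosome 2 (chr2:207074137-207167267, minus strand). Its level was 1.55 and 3.71 FPKM with DMSO and quisinostat in RT4, 4.17 and 5.09 FPKM in RT112, and 0.921 and 5.50 FPKM in SW780. The SW780 ratio was 2.58 on the log2 scale, which 1.93% of loci exceeded, whereas RT112, the line with the highest DMSO level, had a ratio of 0.29. The RT4 ratio was 1.26, and 0.92 with the GC trend removed. The highest line had 4.53 times the level of the lowest with DMSO and 1.48 times with quisinostat.

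KLF3, a repressor that recruits CTBP proteins, lies on chromosome 4 (chr4:38664196-38701042, plus strand). Its level was 16.3 and 14.9 FPKM with DMSO and quisinostat in RT4, 24.6 and 18.9 FPKM in RT112, and 13.4 and 10.9 FPKM in SW780. The log2 ratio was -0.13 in RT4, and it was below -0.3 in RT112 (-0.38) and, narrowly, in SW780 (-0.30). With the GC trend removed it was -0.55, -0.22 and -0.43 in RT4, RT112 and SW780. RT112 had the highest level under both treatments.

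KLF16, a GC-box-binding repressor, has 2 exons on chromosome 19 (chr19:1852399-1863568, minus strand) and the highest transcript GC content of the 8 members, at 67.8%, and its promoter window held the most GC boxes of the 6. Its level was 3.70 FPKM with DMSO and 1.33 FPKM with quisinostat in RT4, 3.33 and 4.58 FPKM in RT112, and 1.47 and 0.908 FPKM in SW780. The log2 ratio was thus -1.47 in RT4 and -0.70 in SW780 but 0.46 in RT112. With the GC trend removed the ratios were 0.04, -0.24 and -0.70 in RT4, SW780 and RT112, so that the sign turned in RT4 and RT112. Ratios above 0.3 in RT112 and below -0.3 in both other lines were found for 7.35% of all loci.

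**Figure D2:**
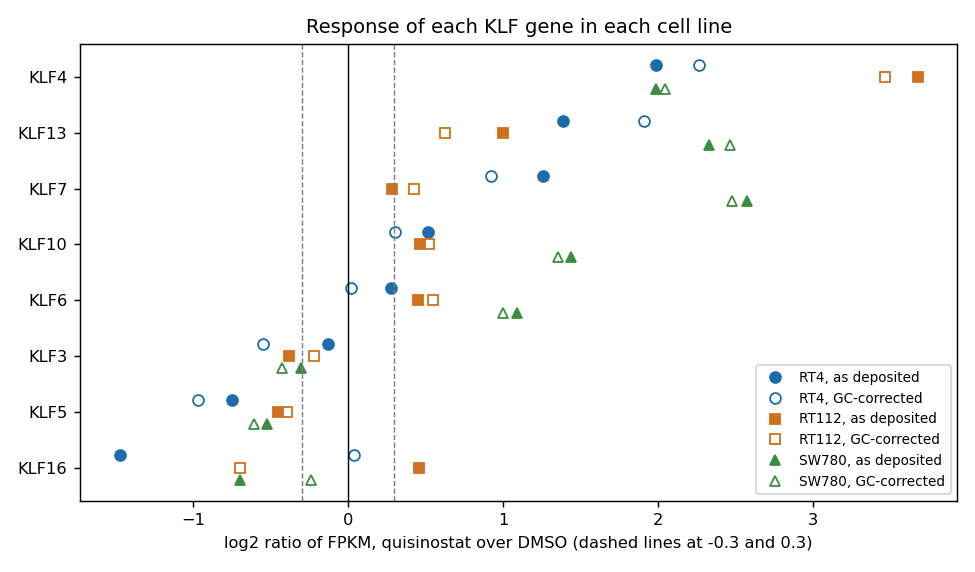
log2 ratio of FPKM, quisinostat over DMSO (horizontal axis), for each KLF gene and cell line, as deposited (filled) and with the GC trend removed (open), with dashed lines at -0.3 and 0.3. KLF4 and KLF13 lie to the right in every line, and the open and filled points of KLF16 are far apart in RT4 (-1.47 and 0.04) and in RT112 (0.46 and -0.70).

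KLF4 and KLF13 were above 1 in all 3 lines, as 3% of loci were. KLF13 was only just above 1 in RT112 (1.00), and its ratio there was 0.98 with a pseudocount of 0.1, 0.95 after median centring and 0.62 with the GC trend removed, so that KLF4 alone was above 1 in all lines under those settings. The lowest treated library was above the highest DMSO library for KLF4 and KLF13, against 6.18% of loci. The margins were narrow, at 1.82 against 1.77 FPKM for KLF4 and 3.60 against 3.57 FPKM for KLF13. FPKM levels of different libraries are not fully comparable, and this order was not checked under another scaling. The highest treated library was below the lowest DMSO library for KLF5, against 4.43% of loci. The 8 members had a median log2 ratio of 0.40 (RT4), 0.46 (RT112) and 1.26 (SW780), where all loci had 0.08, 0.06 and 0.04. With the GC trend removed, the RT4 median was 0.17. In RT4, 4 of 8 members were above 0.3, against 40.3% of loci, and 2 were below -0.3, against 33.5%. In RT112, 5 of 8 were above 0.3, against 36% of loci, and 2 were below -0.3, against 25.2%. In SW780, 5 of 8 were above 0.3, against 32.8% of loci, and the other 3 were below -0.3, against 28.2%. At a ratio above 1 there were 3 of 8 members in RT4, where 18% of loci were, 2 of 8 in RT112, where 13.8% were, and 5 of 8 in SW780, where 10.5% were. In RT4 the counts at 0.3 were thus near those of all loci, and the members stood farthest from all loci in SW780 at a ratio above 1.

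limma, fitted on log2(FPKM + 1) over the 9430 loci that averaged at least 1 FPKM and with the cell line as a block, used the 3 lines as replicates. No member passed a Benjamini-Hochberg adjusted p of 0.05, and neither did any other locus (0% in either direction). At an unadjusted p under 0.05, KLF4, KLF7, KLF10 and KLF13 were higher, where 9.68% of loci were, and KLF5 was lower, where 4.16% were. On the log2(FPKM + 1) scale, which understates differences of low genes, the limma difference was 1.34 ± 0.29 (SE) for KLF4, with a Benjamini-Hochberg adjusted p of 0.254. It was 1.14 ± 0.25 (SE) for KLF13, with a limma adjusted p of 0.257, and -0.56 ± 0.17 (SE) for KLF5, with a limma adjusted p of 0.317. KLF7 was at 0.96 ± 0.36 and KLF10 at 0.75 ± 0.25, with limma adjusted p-values of 0.344 and 0.322. KLF6, KLF3 and KLF16 were at 0.52 ± 0.22, -0.26 ± 0.18 and -0.34 ± 0.36 (SE), with limma adjusted p-values of 0.373, 0.544 and 0.675.

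**Figure D3:**
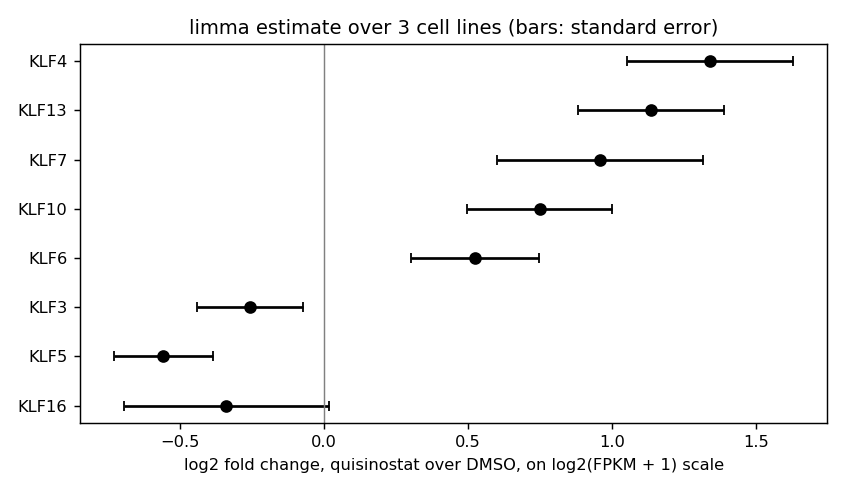
limma difference between quisinostat and DMSO on the log2(FPKM + 1) scale (horizontal axis) for each KLF gene over 3 cell lines, with bars of 1 standard error. KLF4 (1.34) and KLF13 (1.14) lie farthest to the right, KLF5 (-0.56) is to the left of 0, and the bar of KLF16 crosses 0.

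The make-up of the family differed more between treatments than its sum did. The summed FPKM of the 8 members was 92.0 with DMSO and 90.4 with quisinostat in RT4, 108.1 and 104.5 in RT112, and 80.6 and 91.7 in SW780. The level of KLF5 was 53.0 times that of KLF4 with DMSO and 7.97 times with quisinostat in RT4. In RT112 the same ratio of levels was 353 and 20.2, and in SW780 it was 28.96 and 5.07, so that it was smaller by 6.65-, 17.5- and 5.71-fold with quisinostat in the 3 lines. The RT112 values of 353 and 17.5-fold rest on a KLF4 level of 0.14 FPKM with DMSO. KLF10 was second in level after KLF5 in treated RT4 and SW780, at 24.2% and 23.5% of the sum, while KLF3 stayed second in treated RT112, at 18.1%. KLF16 was the lowest member in treated RT4 and SW780 and KLF4 in treated RT112.

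**Figure D4:**
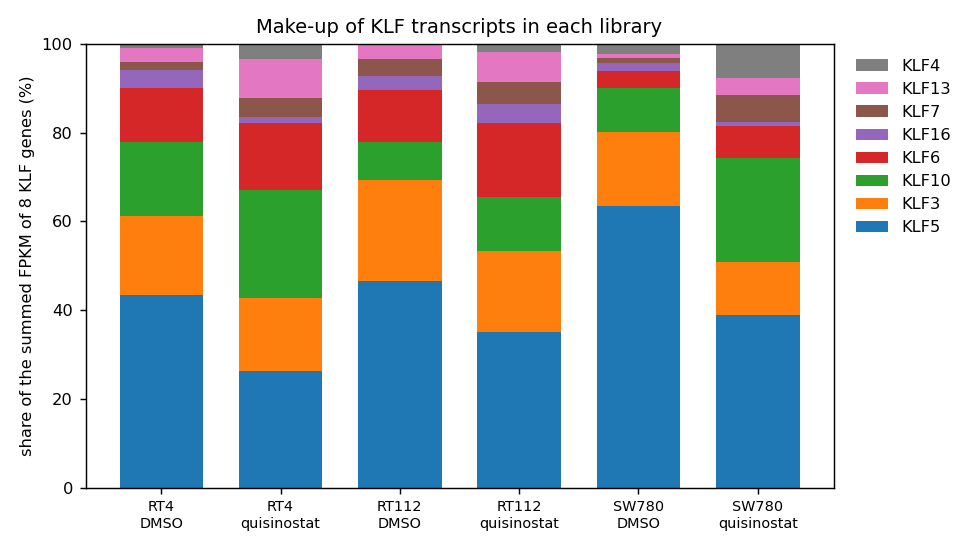
Share of the summed FPKM of the 8 KLF genes (vertical axis, percent) taken by each gene in each of the 6 libraries. The KLF5 share is smaller with quisinostat in each line (43.5% and 26.4% in RT4, 46.5% and 35.2% in RT112, 63.6% and 38.9% in SW780).

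Between the lines, 5 of 8 members were more than 2-fold apart with DMSO, against 48.6% of loci, and 4 of 8 with quisinostat, against 51.4%. KLF4 spanned the widest range with DMSO, 12.4-fold, and KLF5 the narrowest, 1.28-fold. The KLF4 range rests on its low level of 0.14 FPKM in RT112. The lines were closer together with quisinostat for 6 of 8 members, where 46.6% of loci were, and KLF16 and KLF5 were the exceptions. With 1 library per line, it was not tested whether neighbouring levels differ.

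Of 17 other KLF and SP family genes, 4 were found. SP6, a factor of epithelial and tooth development, was 9.84 and 3.69 FPKM with DMSO and quisinostat in RT4, 6.35 and 2.18 FPKM in RT112, and 4.87 and 1.26 FPKM in SW780. With the GC trend removed, the log2 ratios of SP6 were -0.60, -2.14 and -1.73 in place of -1.42, -1.54 and -1.95. The limma difference was -1.27 ± 0.23 (SE) with a Benjamini-Hochberg adjusted p of 0.240. SP1 and SP3, broadly expressed GC-box-binding factors, did not pass 0.3 in 1 direction in all 3 lines, with log2 ratios of -0.16, -0.35 and -0.35 for SP1 and -0.47, 0.19 and -0.29 for SP3 in RT4, RT112 and SW780. In RT4 the ratio with the GC trend removed was -0.46 for SP1 and -0.96 for SP3. KLF8 was 1.73 and 2.02 FPKM in RT4, was listed at 0 in both RT112 libraries, and was at 0 and 0.050 FPKM in SW780.

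Genes that work with the KLF proteins were counted with the same threshold of 0.3 in 1 direction in all 3 lines, which 11.4% of all loci passed upwards and 4.99% downwards. Of 14 corepressors and coactivators of KLF proteins none was higher and 2 were lower, RBBP4 (a histone-binding subunit of SIN3 complexes) and CREBBP (an acetyltransferase, at a locus shared with another gene name). With the GC trend removed, RBBP4 was at -0.78, -0.19 and -0.58 in RT4, RT112 and SW780 and did not pass in RT112. CREBBP still passed in all 3 lines, at -0.90, -0.74 and -0.44. None of 7 ubiquitin regulators, 12 epithelial transcription regulators or 7 cell cycle targets of KLF4 and KLF6 passed in either direction. Of 10 epithelial differentiation genes, SPRR3, a cornified envelope protein, was lower, with log2 ratios of -1.20, -1.23 and -1.89, and none was higher. Of 4 glucocorticoid and circadian response genes with ratios, SGK1, a kinase, and TSC22D3, a leucine zipper protein, were higher. SGK1 was 0.344 and 5.17 FPKM in RT4, 2.09 and 2.62 FPKM in RT112, and 0.420 and 4.62 FPKM in SW780.

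In the TGF-beta pathway, to which KLF10 responds, 8 of 12 listed genes were found. Of these, 4 were higher in all 3 lines by the deposited ratios, against 11.4% of all loci, and none was lower, against 4.99%. TGFB1, the ligand, was 4.404 and 9.21 FPKM in RT4, 6.19 and 14.8 FPKM in RT112, and 8.16 and 25.7 FPKM in SW780. SKIL, a corepressor of SMAD proteins, was 1.92 and 3.87 FPKM in RT4, 14.3 and 24.1 FPKM in RT112, and 16.7 and 30.9 FPKM in SW780. The receptors TGFBR1 and TGFBR2, named after their values were seen, were the other two. With the GC trend removed, the log2 ratio of SKIL in RT4 was 0.2999, just short of 0.3, so SKIL no longer passed in all 3 lines. It still passed in RT112 and SW780. TGFB1 still passed in all 3 lines, with its lowest ratio, 0.42, in RT112. TGFBR1 and TGFBR2 also still passed in all 3 lines. The limma difference was 1.20 for TGFB1 and 0.76 for SKIL, with Benjamini-Hochberg adjusted p-values of 0.240 and 0.279. None of the 11 urothelial and epithelial markers with ratios was past 0.3 in 1 direction in all 3 lines. RT4, RT112 and SW780 had marker medians of -1.25, 0.82 and -0.83 on the log2 scale, as deposited and without removal of the GC trend. The deposited KLF16 ratios had the same signs. With the GC trend removed, the KLF16 ratios were 0.04, -0.70 and -0.24 in RT4, RT112 and SW780 and did not keep those signs. The marker medians were not recomputed in this way, so whether the markers kept theirs is not given here. The summed level of the 12 markers was 1708 FPKM with DMSO and 869 FPKM with quisinostat in RT4, 1046 and 1594 FPKM in RT112, and 1634 and 962 FPKM in SW780. COL1A1 was higher in all 3 lines, at 0.03, 0.17 and 0.06 FPKM with DMSO in RT4, RT112 and SW780. With quisinostat it was at 0.47, 1.45 and 0.50 FPKM. Its mean of 0.45 FPKM was below the limma filter of 1 FPKM. COL3A1, the other stromal marker found, was lower in SW780, with log2 ratios of 2.46, 1.90 and -1.06 in RT4, RT112 and SW780. The part of these markers in the KLF values was not tested.

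The loci whose levels over the 6 libraries were most like each member, by Pearson correlation of log2(FPKM + 1) among 8393 loci, are given as a description, since 6 libraries from 3 lines share their source and their base composition trends. For KLF4 the correlation with MEGF9 was 0.989. MEGF9 was 5.63 and 11.02 FPKM with DMSO and quisinostat in RT4, 5.12 and 8.60 FPKM in RT112, and 8.12 and 16.2 FPKM in SW780. The treated SW780 library was the highest and the RT112 DMSO library the lowest for both KLF4 and MEGF9. KLF13 was most like TSPAN9 (0.985) and TPM4 (0.983), KLF10 like KCTD10 (0.989) and DUSP7 (0.987), and KLF5 like BCLAF1P2 (0.999) and KIAA0368 (0.991). KLF6 was most like SMCR8 and UBL5 (0.990 each), KLF7 like PODXL2 (0.996) and PCGF1 (0.978), and KLF3 like QSER1 (0.998) and LAP3 (0.994). KLF16 was most like ZBTB7A and CDT1 (0.995 each), and 73 loci passed 0.95 for KLF16 against 8 for KLF10.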

How the data were processed

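Poly(A) RNA of RT4, RT112 and SW780 cells treated with quisinostat or DMSO was sequenced from stranded libraries (6 libraries, 1 per line and treatment). Submitters' processing notes name CASAVA 1.8.2, Trimmomatic 0.36, HISAT2 2.2.1, SAMtools 1.15.1, StringTie 2.2.1 and GRCh38, and the study's methods name Ballgown. The annotation release used is not given in the sources used here. The authors deposited FPKM values per assembled locus, used here as deposited. FPKM holds no read counts, so depth and counting error are unknown. Groups followed sample titles, and 1 SW780 library carries a misspelt line name in another label.

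Per line, treated FPKM was divided by DMSO FPKM and set on the log2 scale without pseudocount, over 9112 loci above 0 in all 6 libraries. limma 3.58.1 (R 4.3.3) with a trend was fitted on log2(FPKM + 1) for loci of mean FPKM at least 1, with Benjamini-Hochberg adjustment over all 9430 loci and the cell line as a block, since the libraries of a pair come from the same line. The lines thus serve as replicates, although their doses differed. The p-values set the mean treatment difference against the spread of that difference between lines, with the variance estimate shared in part across loci. A lowess fit (span 0.3) against the GC content of GENCODE 29 transcripts removed the GC trend, and 92.3% of loci had a GC value. The other settings were other thresholds, pseudocounts and filters, quantile normalization, no trend, no block, and leaving out each line. Scripts were tested on simulated data. Named were all members, all KLF and SP relatives found, at most 4 genes of each other list by their weakest ratio, and the 2 loci most like each member, of which 1 is not reported here. Members and lists were chosen with earlier results of these data known.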

Additional observations from a re-analysis of the deposited data

Results flagged for a closer look

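KLF16 had opposite log2 ratios in the cell lines: -1.47 in RT4 and -0.70 in SW780, but 0.46 in RT112. This was picked out because the single pair of RT112 moved one way and those of RT4 and SW780 the other. With 1 library per line and treatment the difference between lines was not tested, and with the GC trend removed the ratios were 0.04, -0.24 and -0.70 in RT4, SW780 and RT112.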

How the results depend on the processing

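With 1 library per line and treatment, unknown read depth and 3 lines as the only replicates, a difference could be called only where it was alike in the lines. No locus passed a limma adjusted p of 0.05 under any of the 11 settings run, with a smallest adjusted p of 0.0622 over all loci. Removing the GC trend reversed the KLF16 ratio in RT4 (0.040) and in RT112 (-0.70). No member was below the threshold in all lines at 0.5 or at 1 (0 in each case), against 1.89% and 0.285% of loci. KLF4 and KLF13 were above it at both, as 7.42% and 3% of loci were, and KLF10 was above it at neither. Leaving out 1 line gave 1 to 2 members below -0.3. These were KLF3 and KLF5 without RT4 (9.49% of loci), KLF5 and KLF16 without RT112 (17.9%), and KLF5 without SW780 (8.18%). The count above 0.3 was 3 to 4 when 1 line was left out. The share of loci was then 15.9%, 23.0% and 15.9% without RT4, RT112 and SW780. At an unadjusted limma p under 0.05, the 4 higher members became 1 with a mean FPKM of at least 5, against 9.13% of loci. This was KLF10, as KLF4, KLF7 and KLF13 were then not tested. Leaving out 1 line gave 1 to 4 higher members, against 5.54%, 12.4% and 4.14% of loci without RT4, RT112 and SW780. It gave 0 to 1 lower members, against 2.55%, 9.43% and 0.785%. Without SW780, KLF4 alone was higher and 0 were lower.

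Without the cell line block, 1 member was higher (KLF4) and 0 were lower at that unadjusted p, against 3.33% and 1.12% of loci. The block with the GC correction gave 2 lower members (KLF3 and KLF5), against 10.6% of loci. In these settings the limma adjusted p of KLF4 ranged from 0.129 to 0.973 and that of KLF5 from 0.140 to 0.973. Of the counts and medians recomputed, 60 were close to the reported value and 10 moved. A count of 2 or 4 higher members was taken as close to 3. The close ones include the limma adjusted count, which was 0 in every setting. A median counted as close when it was within 0.3, as the RT4 median of 0.17 with the GC trend removed was, against 0.40. Of the recomputed log2 ratios of single KLF and SP genes, 143 were close, 20 moved by more than 0.3 and 2 reversed.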

Other observations

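Some genes outside the KLF family, chosen after their values were seen, differed between treatments to unlike extents or in unlike directions in the lines. SMURF2, a ubiquitin ligase, was 0.326 and 7.34 FPKM with DMSO and quisinostat in RT112, against 3.60 and 2.91 FPKM in RT4 and 7.31 and 8.70 FPKM in SW780. KRT20, a keratin of superficial urothelial cells, was 3.21 and 62.7 FPKM in RT4 and 0.356 and 2.80 FPKM in SW780, but 1.11 and 0.336 FPKM in RT112. EMP1, an epithelial membrane protein, was 0.554 and 7.04 FPKM in RT4, 71.7 and 48.8 FPKM in RT112, and 32.4 and 33.5 FPKM in SW780. None of the 3 was past 0.3 in 1 direction in all lines, and with 1 library per condition these differences have no replicate check.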
